A study of Canis lupus familiaris with 10 samples.

Results

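miR-26a and miR-26b (cfa-miR-26a and cfa-miR-26b in the files) are the mature products of the miR-26 family, and they make up 2 of the 320 miRNAs counted in fresh-frozen canine lymph nodes, of which 247 were abundant enough to be tested between groups. They were taken by name, with earlier results of these data known. Small RNA was sequenced from 6 lymph nodes affected by diffuse large B-cell lymphoma (DLBCL1 to DLBCL6) and 4 histologically normal nodes of healthy dogs (Healthy2, Healthy3, Healthy4 and Healthy5), and each dog gave a single library. The DLBCL nodes were biopsies of an affected peripheral node from hospital patients of both sexes and several breeds, whereas the healthy nodes came from young, female, purpose-bred hound crosses after euthanasia, so that breed, sex, age and sampling cannot be told apart from the disease. The age of the patients is not given in the sources used here. Each node is a mixture of cell types, and no sorting was done.

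MicroRNAs lower the output of their target mRNAs by base pairing, chiefly through a short stretch near their 5′ end called the seed, and miR-26a and miR-26b carry the same seed. The family is widely expressed and is known as a restraint on growth: it lowers EZH2, the methyltransferase that silences genes through histone H3 lysine 27, and the transcription factor MYC is known to lower miR-26 in B-cell lymphoma. The genes of the family sit inside those of small phosphatases that act on the tail of RNA polymerase II. In the RefSeq table of the canine assembly UU_Cfam_GSD_1.0, MIR26A-1 lies within CTDSPL, MIR26A-2 within CTDSP2 and MIR26B within CTDSP1. The reads of the mature miR-26a could come from either of its loci and cannot be divided between them. miR-26a and miR-26b are also near-identical in sequence, so that some reads of one could have been counted for the other. EZH2, MYC and the phosphatases were not measured in these libraries, and the files give no arm for either name.

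Both members were abundant in every library. Between 10686441 and 25784861 reads were counted on miRNAs in the DLBCL libraries and between 30432969 and 34709421 in the healthy ones. miR-26a received 218000 reads in DLBCL1, 476255 in DLBCL2, 272719 in DLBCL3, 665730 in DLBCL4, 338806 in DLBCL5 and 590008 in DLBCL6. In the healthy libraries it received 446269 reads in Healthy2, 749241 in Healthy3, 535610 in Healthy4 and 895015 in Healthy5. miR-26b received 78453, 104559, 64767, 238017, 67022 and 182537 reads in DLBCL1 to DLBCL6, in that order. Its reads numbered 70528, 149635, 113786 and 209571 in Healthy2 to Healthy5. miR-26a thus outnumbered miR-26b in each of the 10 libraries. The 95% Wilson intervals of these shares of the miRNA reads were at most 1.54% of the share wide, which allows for the error of counting reads alone. PCR copies of one molecule are counted as separate reads, so that the error in counting molecules could be larger.

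As a share of all miRNA reads, miR-26a made up 2.39% ± 1.09 (SD, n = 6) in DLBCL, from 1.06% in DLBCL3 to 4.10% in DLBCL4. In healthy nodes it made up 2.10% ± 0.718 (SD, n = 4), from 1.29% in Healthy2 to 2.91% in Healthy5. The share of miR-26b was 0.708% ± 0.449 in DLBCL (SD, n = 6) and 0.436% ± 0.201 in healthy nodes (SD, n = 4). On this scale the groups overlapped for both members. A share falls when another miRNA takes more of the library, and miR-148a, the most abundant miRNA, had a share of 31.3% ± 7.80 in DLBCL (SD, n = 6) and 61.0% ± 9.67 in healthy nodes (SD, n = 4). Levels are therefore also given as CPM, read counts scaled to a common library size that was adjusted with edgeR's TMM factors, which rest on the bulk of miRNAs rather than on the total.

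On the CPM scale, miR-26a was lower in every DLBCL library than in every healthy library. Its CPM was 12837 in DLBCL3, 14617 in DLBCL6, 18243 in DLBCL1, 18615 in DLBCL2, 22069 in DLBCL5 and 23486 in DLBCL4. In the healthy libraries it was 25384 in Healthy2, 26236 in Healthy5, 27488 in Healthy3 and 28128 in Healthy4. The groups did not overlap, which was also true, in either direction, of 13.0% of the 247 miRNAs tested. The mean was 18311 ± 4114 CPM (SD, n = 6) for DLBCL and 26809 ± 1233 CPM (SD, n = 4) for the healthy group. The log2 fold change was -0.55 (standard error 0.27, 95% interval -1.14 to 0.04), that is 0.683 times the healthy level. It did not pass the threshold, with an adjusted p = 0.211 from the quasi-likelihood test of edgeR, adjusted by Benjamini-Hochberg over the 247 miRNAs (unadjusted p = 0.0658). The exact permutation test of the mean log2 CPM (two-sided, 210 assignments of libraries to groups) gave p = 0.00952, or 0.131 after adjustment over the same miRNAs. A p of 0.00476 is the smallest that 6 libraries against 4 can give.

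miR-26b showed no such separation. Its CPM was 3048 in DLBCL3, 4087 in DLBCL2, 4366 in DLBCL5, 4522 in DLBCL6, 6565 in DLBCL1 and 8397 in DLBCL4, while the healthy libraries held 4012 in Healthy2, 5490 in Healthy3, 5976 in Healthy4 and 6143 in Healthy5. DLBCL1 and DLBCL4 lay above the healthy range, DLBCL3 lay below it, and the remaining 3 DLBCL libraries lay inside it. The mean was 5164 ± 1954 CPM (SD, n = 6) for DLBCL and 5405 ± 969 CPM (SD, n = 4) for the healthy group. With edgeR the log2 fold change was -0.07 with a standard error of 0.34 and an adjusted p of 0.913. Its 95% interval ran from -0.81 to 0.68, so that changes within that range, in either direction, were not excluded with these dogs. The exact permutation test gave p = 0.69, or 0.831 after adjustment over the 247 miRNAs.

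**Figure D1:**
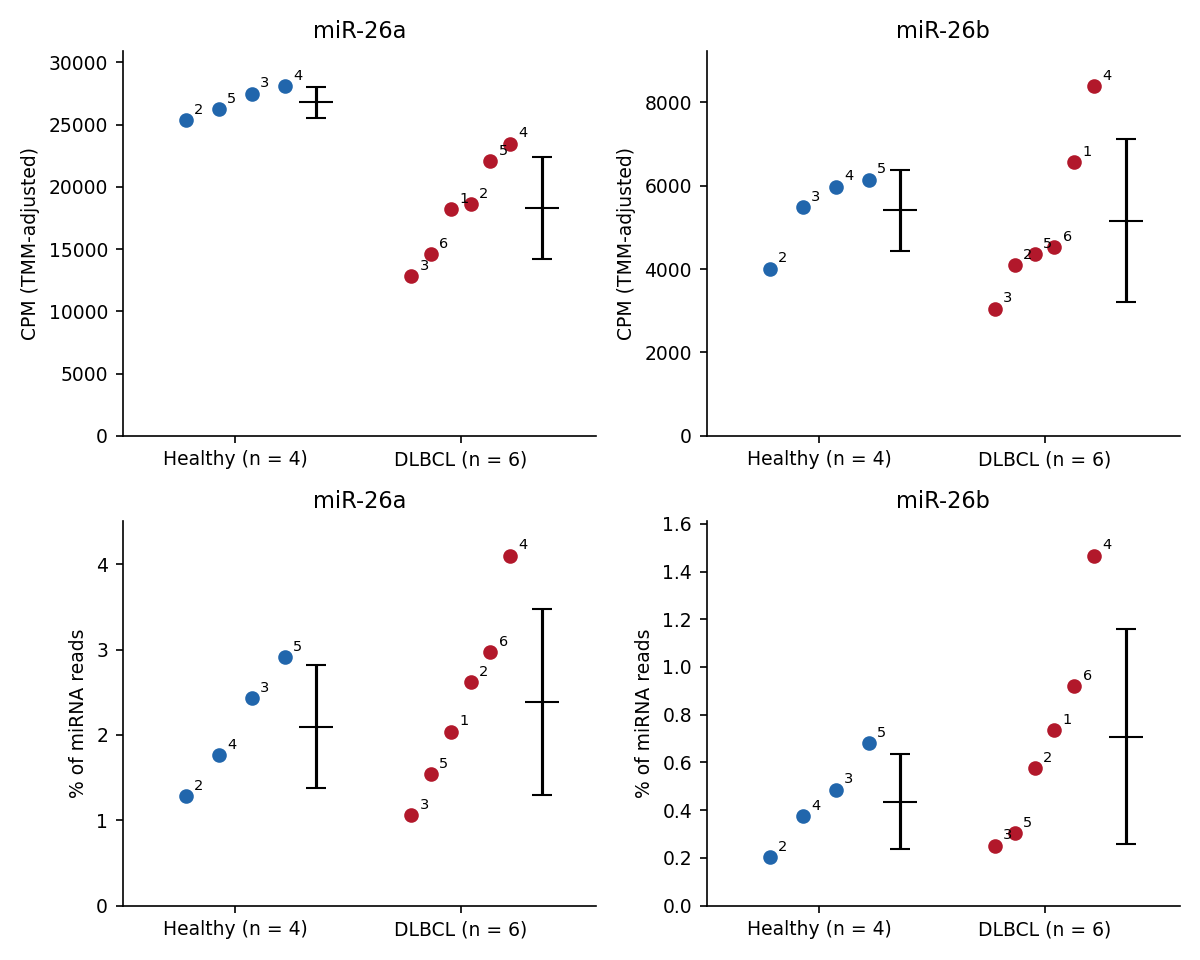
Level of miR-26a (left) and miR-26b (right) in each library, as TMM-adjusted CPM (upper row) and as the percentage of all miRNA reads (lower row); points are libraries labelled with their number, and bars beside them give the mean ± SD. In CPM the DLBCL libraries of miR-26a lie between 12837 and 23486, below the healthy libraries at 25384 to 28128, whereas the groups overlap in the other 3 panels.

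An miRNA was counted as differentially expressed (DEM) where its adjusted p was below 0.05 and its level differed more than 2-fold. By this rule 0 of the 2 members were DEMs in edgeR, against 5.67% of all miRNAs tested. No alternative tool or setting made either of them a DEM: DESeq2 gave adjusted p-values of 0.273 for miR-26a and 0.976 for miR-26b, and limma-voom gave 0.166 and 0.811. An unadjusted p under 0.05 was not reached by either member in the edgeR fit, against 26.7% of the miRNAs tested, while limma-voom gave an unadjusted p of 0.0443 for miR-26a. The size of the log2 fold change, without its sign, was smaller than that of miR-26a for 90 of the 247 miRNAs and smaller than that of miR-26b for 12. The median size over all miRNAs tested was 0.87.

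The direction for both members depended on how the libraries were scaled. The deposited TPM values are scaled to the total of miRNA reads. With that scaling the log2 fold change was 0.19 for miR-26a and 0.70 for miR-26b, but that of the median miRNA was then 0.82, compared with 0.13 under TMM. A change of scaling moves all miRNAs by about the same amount, so that the distance of a member from the median miRNA is a single observation, whichever scaling is used. Under TMM the log2 fold change less the median was -0.68 for miR-26a and -0.20 for miR-26b. With the total without miR-148a the log2 fold change was -0.63 for miR-26a and -0.10 for miR-26b, and with the sRNA reads mapped to the genome it was -0.45 and 0.04. Scaled to the geometric mean of miR-361, miR-101 and miR-29c, the reference miRNAs that the study chose for RT-qPCR, the log2 fold change was -1.02 for miR-26a (adjusted p = 0.116 from edgeR) and -0.55 for miR-26b (adjusted p = 0.275), with a median of -0.32 over all miRNAs. Of these references, miR-29c itself had a TMM-based log2 fold change of 1.92 (adjusted p = 0.109 from edgeR), miR-101 one of -0.03 and miR-361 one of -0.24. The groups did not overlap for miR-26a under TMM, DESeq2's size factors and the 3 references, and they overlapped under the other 3 scalings.

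**Figure D2:**
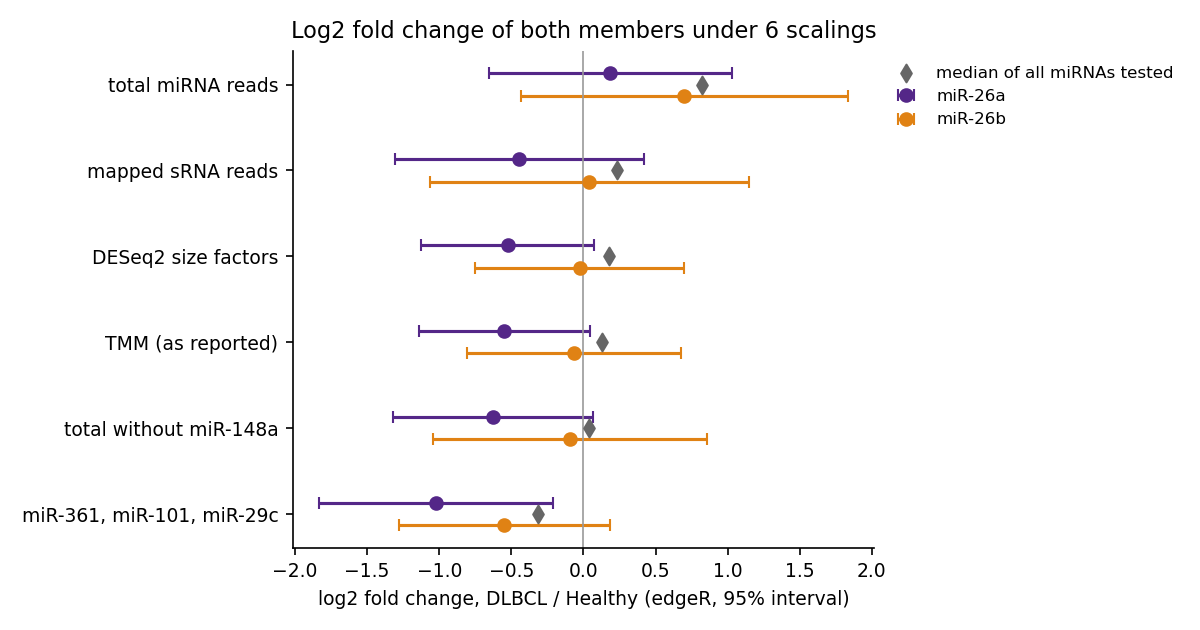
Log2 fold change of DLBCL over healthy nodes for miR-26a and miR-26b under 6 ways of scaling the libraries, with 95% intervals from edgeR; diamonds give the median of all 247 miRNAs tested. miR-26a moves from -0.55 under TMM to 0.19 with total miRNA reads while the diamond moves from 0.13 to 0.82, since a scaling shifts all miRNAs together.

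Reads of the members within one library need no scaling between libraries, so their ratio was compared directly. There were 2.78 reads of miR-26a for each read of miR-26b in DLBCL1, 2.80 in DLBCL4, 3.23 in DLBCL6, 4.21 in DLBCL3, 4.55 in DLBCL2 and 5.06 in DLBCL5. The healthy libraries held 4.27 in Healthy5, 4.71 in Healthy4, 5.01 in Healthy3 and 6.33 in Healthy2. Thus 4 of the 6 DLBCL libraries lay below the lowest healthy library and 2 lay within the healthy range. The ratio was 3.77 ± 0.968 in DLBCL (SD, n = 6) and 5.08 ± 0.886 in healthy nodes (SD, n = 4). The mean log2 ratio was 1.88 ± 0.37 in DLBCL and 2.33 ± 0.24 in healthy nodes, a difference of -0.45 that did not pass the threshold (two-sided exact permutation test, p = 0.0714). Without DLBCL5 the difference was -0.55 with an exact permutation p of 0.0476, and without each of the other 9 libraries in turn the p stayed above 0.05. The standard error from counting was at most 0.00631 on the log2 scale in any library.

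**Figure D3:**
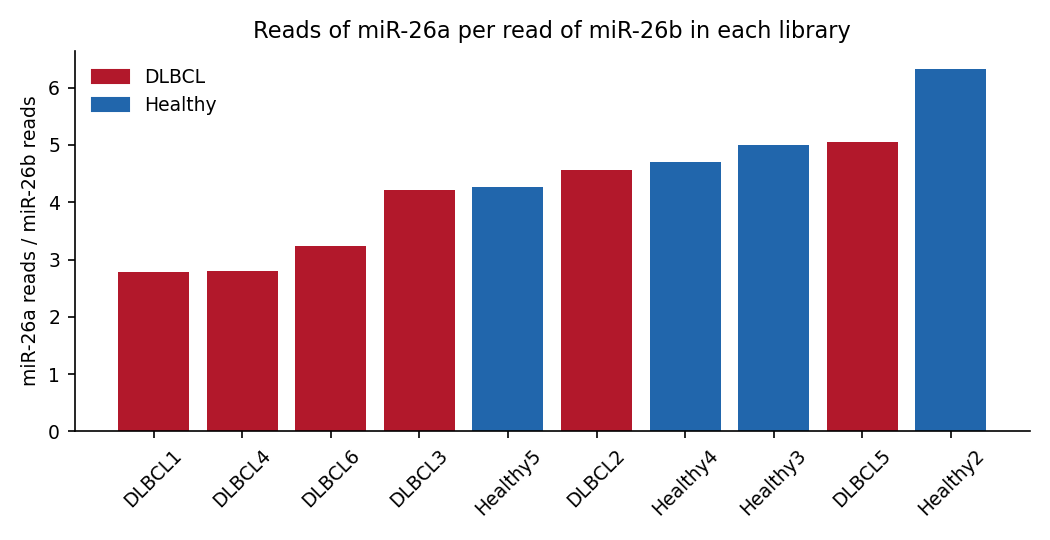
Reads of miR-26a per read of miR-26b in each library, in ascending order, with DLBCL in red and healthy nodes in blue. The 4 lowest ratios, from 2.78 to 4.21, are those of DLBCL libraries, while DLBCL2 and DLBCL5 stand among the healthy libraries, which range from 4.27 to 6.33.

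The members had a combined share of 3.1% ± 1.52 in DLBCL (SD, n = 6) and 2.53% ± 0.917 in healthy nodes (SD, n = 4). In CPM their sum was 23475 ± 5626 in DLBCL (SD, n = 6) and 32214 ± 2010 in healthy nodes (SD, n = 4). The range of the sum was 15885 to 31883 in DLBCL and 29396 to 34104 in healthy nodes, so that the groups overlapped. miR-26b supplied 26.5% of the pair in DLBCL1 and 13.6% in Healthy2, the highest and the lowest of the 10 libraries.

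Variation between dogs was small for miR-26a under TMM. In healthy nodes its log2 CPM had an SD of 0.07, and 1 of the 247 miRNAs had a smaller one, where the median SD was 0.54. In DLBCL its SD of 0.34 was the sixth smallest, with 5 miRNAs below it and a median of 1.07. These ranks are among miRNAs of all levels, not matched for abundance. For miR-26b the SD was 0.28 in healthy nodes and 0.52 in DLBCL, with 46 and 25 miRNAs below it. The SD of miR-26a in healthy nodes differed between scalings: it was 0.11 with DESeq2's size factors (7 miRNAs below it), 0.16 with the total without miR-148a (15 below it), 0.49 with mapped sRNA reads (60 below it) and 0.52 with total miRNA reads (64 below it). In DLBCL its SD was 0.30 with DESeq2's size factors (5 below it) and 0.50 with the 3 references (19 below it). It was 0.60 with the total without miR-148a (35 below it), 0.70 with mapped sRNA reads (26 below it) and 0.70 with total miRNA reads (47 below it). Scaled to the 3 reference miRNAs, miR-26b had an SD of 0.11 in healthy nodes with 0 of the 247 miRNAs below it, whereas miR-26a had an SD of 0.35 with 56 below it. Among the DLBCL nodes the CPM of miR-26a spanned a 1.83-fold range and that of miR-26b a 2.75-fold range. For both members DLBCL3 was the lowest DLBCL library and DLBCL4 the highest.

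The libraries also differed in base quality. DLBCL1, DLBCL2, DLBCL3 and DLBCL5 had a higher percentage of bases at Q30 than DLBCL4, DLBCL6 and the healthy libraries, as listed in the study's supplement. The higher group holds DLBCL libraries only, so that a comparison within it was not possible. Within the lower group, DLBCL4 and DLBCL6 held 23486 and 14617 CPM of miR-26a, and the log2 fold change against the 4 healthy libraries was -0.50 (adjusted p = 0.362 from edgeR). For miR-26b it was 0.25 (adjusted p = 0.685 from edgeR), the opposite sign to that of all 10 libraries. The difference in log2 ratio was -0.74 within the lower group, with both DLBCL libraries below all 4 healthy ones (p = 0.0667 by a two-sided exact permutation test, which cannot give a smaller one for 2 libraries against 4).

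By mean TPM over the 10 libraries, miR-26a ranked number 7 of the 320 miRNAs and miR-26b number 19. Mature miRNAs are all of nearly the same short length and each was read whole, so these levels carry no length term, although miRNAs differ in how well they are ligated into libraries. The rank of miR-26a within a library was 5 to 7 in healthy nodes and 6 to 17 in DLBCL, and it was lowest in DLBCL3. miR-26b ranked 13 to 20 in healthy nodes and 13 to 32 in DLBCL. Just above miR-26a stood let-7g, a member of the let-7 family that restrains growth, which exceeded it in 9 of the 10 libraries, and miR-143, an miRNA of smooth muscle and stroma, in 7. Below it stood miR-30d, which exceeded miR-26a in DLBCL1 and DLBCL3, and miR-10b, which did so in DLBCL3. Next to miR-26b stood miR-363 and miR-155, the latter an miRNA of activated B cells, above it, and miR-186 and miR-146a below it. Each of these 4 exceeded miR-26b in 4 to 6 of the 10 libraries, and the order differed between the groups. miR-363 and miR-186 each exceeded miR-26b in 4 DLBCL libraries and in 0 healthy ones, and miR-363 averaged 8854 CPM in DLBCL and 2013 CPM in healthy nodes. miR-155 exceeded it in 3 DLBCL and 3 healthy libraries. miR-146a, a brake on NF-kB signalling, exceeded miR-26b in all 4 healthy libraries and in 2 of the 6 DLBCL libraries.

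The other miRNAs known to be lowered by MYC were examined as a list of 25, all of which were tested. Of these, 1 rose, 2 fell and 22 did not pass, in a comparison where 3.64% of all miRNAs tested were DEMs higher in DLBCL and 2.02% were DEMs lower in DLBCL. An unadjusted p under 0.05 in edgeR was reached by 6 of the 25, beside 26.7% of all miRNAs tested. The median log2 fold change of the list was -0.26, beside 0.13 for all miRNAs tested, with 15 members below 0 and 10 above. With total miRNA reads these medians were 0.53 and 0.82, so that the sign of the list's median followed the scaling. miR-150, an miRNA of mature lymphocytes, fell to 1009 ± 488 CPM (SD, n = 6) in DLBCL, where healthy nodes had 7916 ± 5434 CPM (SD, n = 4), and its log2 fold change was -2.97 (adjusted p = 0.00687 from edgeR). miR-146a fell, with a log2 fold change of -1.46 (adjusted p = 0.0397 from edgeR). miR-34a, which p53 is known to induce, rose with a log2 fold change of 4.0 (adjusted p = 0.0397 from edgeR). Leaving out one library at a time, the call of miR-150 was lost only without Healthy4 (adjusted p = 0.0551 from edgeR), and those of miR-146a and miR-34a held in 4 of 10 such fits, being lost without DLBCL1, DLBCL6 or any healthy library. The call of miR-34a was also lost with DESeq2's size factors (adjusted p = 0.0503 from edgeR), the total without miR-148a (0.06), mapped sRNA reads (0.0651), the 3 references (0.0554) and limma-voom (0.134), so that 0 of the 25 were then called higher, while it was kept with total miRNA reads (0.0257) and with DESeq2 (7.97e-05). That of miR-146a was lost with total miRNA reads (0.209) and mapped sRNA reads (0.102), and that of miR-150 was kept under all 6 scalings. miR-26a and miR-26b, at -0.55 and -0.07, lay between these extremes. Among the let-7 members the values ran from -0.35 for let-7c to 0.32 for let-7d, and let-7g, with 34524 CPM in DLBCL and 34032 CPM in healthy nodes, had a log2 fold change of 0.02.

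**Figure D4:**
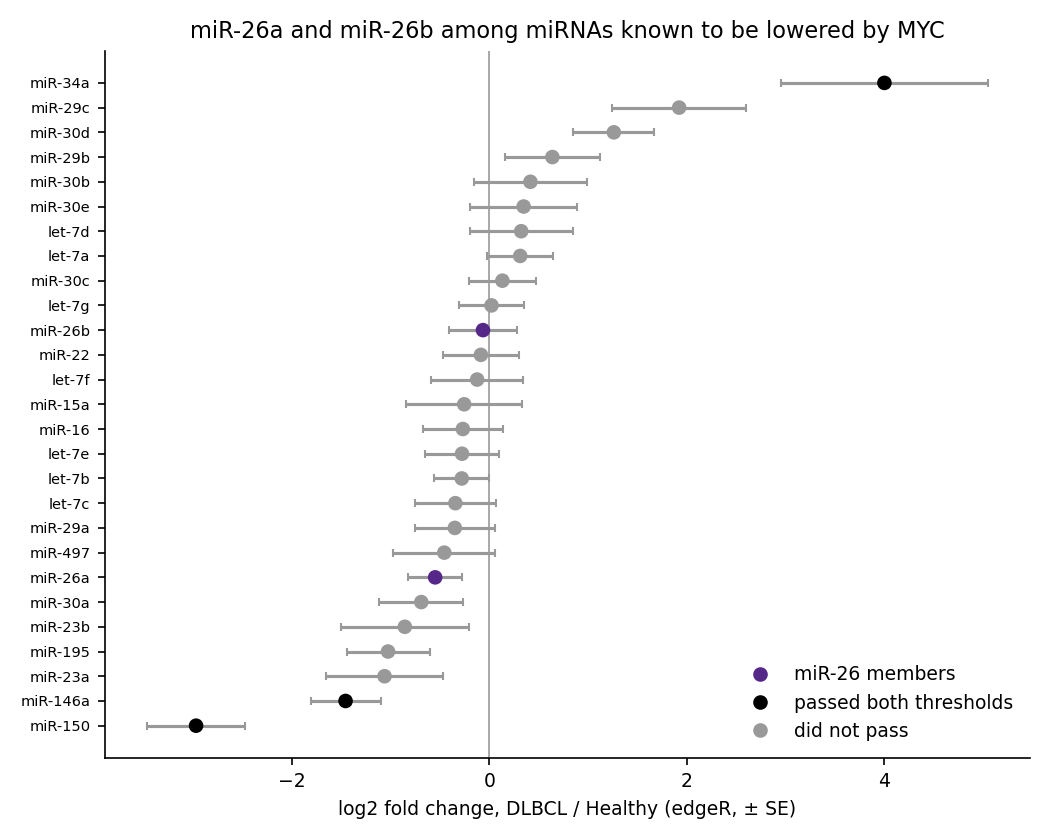
Log2 fold change of DLBCL over healthy nodes with standard errors from edgeR for miR-26a, miR-26b and 25 other miRNAs known to be lowered by MYC. miR-150 and miR-146a passed both thresholds on the lower side and miR-34a on the higher side, and the miR-26 members, at -0.55 and -0.07, did not pass.

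Of the 7 other miRNAs listed as known to target EZH2, 6 were tested, and miR-124 had too few reads. Of those tested 0 passed both thresholds, against 5.67% of all miRNAs tested. Their median log2 fold change was -0.37, with 4 of the 6 below 0. In the edgeR fit 1 of them, miR-217, had an unadjusted p under 0.05, beside 26.7% of all miRNAs tested. DESeq2 and limma-voom each called miR-217 lower in DLBCL, beside 12 of 262 and 6 of 247 miRNAs called lower in all. miR-217 is also in the list of exocrine pancreas miRNAs given below, so that it is counted in both lists. The others of that list, miR-216b and miR-216a, had log2 fold changes of -2.84 and -2.57 (adjusted p = 0.0806 and 0.146 from edgeR). miR-101, a regulator of EZH2 like miR-26a, averaged 2231 ± 484 CPM in DLBCL (SD, n = 6) and 2274 ± 376 CPM in the healthy group (SD, n = 4), a log2 fold change of -0.03 (adjusted p = 0.968 from edgeR). miR-217 had the lowest value of the list, -3.16 (adjusted p = 0.109 from edgeR), and miR-138b, which stood below 1 CPM in both groups, the highest, 1.44 (adjusted p = 0.326 from edgeR).

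The miRNAs most alike to each member were sought by Pearson's r of log2 CPM over the 10 libraries after the mean of each group was removed, which leaves the differences between dogs of one group. These values are descriptions, since the 10 points share the TMM factors and rest largely on the 6 DLBCL libraries. For miR-26a the 5 highest were miR-181a (r = 0.94), miR-181b (0.91), miR-223 (0.87), miR-216b (0.87) and miR-216a (0.86). In the DLBCL libraries alone, r was 0.99 for miR-181a and 0.93 for miR-181b. miR-181a and miR-181b are known from lymphocyte development and miR-223 from myeloid cells. For miR-26b the 5 were miR-19b (0.92), miR-29a (0.88), miR-223 (0.88), miR-217 (0.85) and miR-30c (0.84). miR-19b belongs to the miR-17/92 cluster, which MYC is known to raise. The r between miR-26a and miR-26b was 0.68, which placed miR-26b number 19 in likeness to miR-26a and miR-26a number 41 in likeness to miR-26b. The median r over the other miRNAs was 0.08 for miR-26a and 0.11 for miR-26b.

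**Figure D5:**
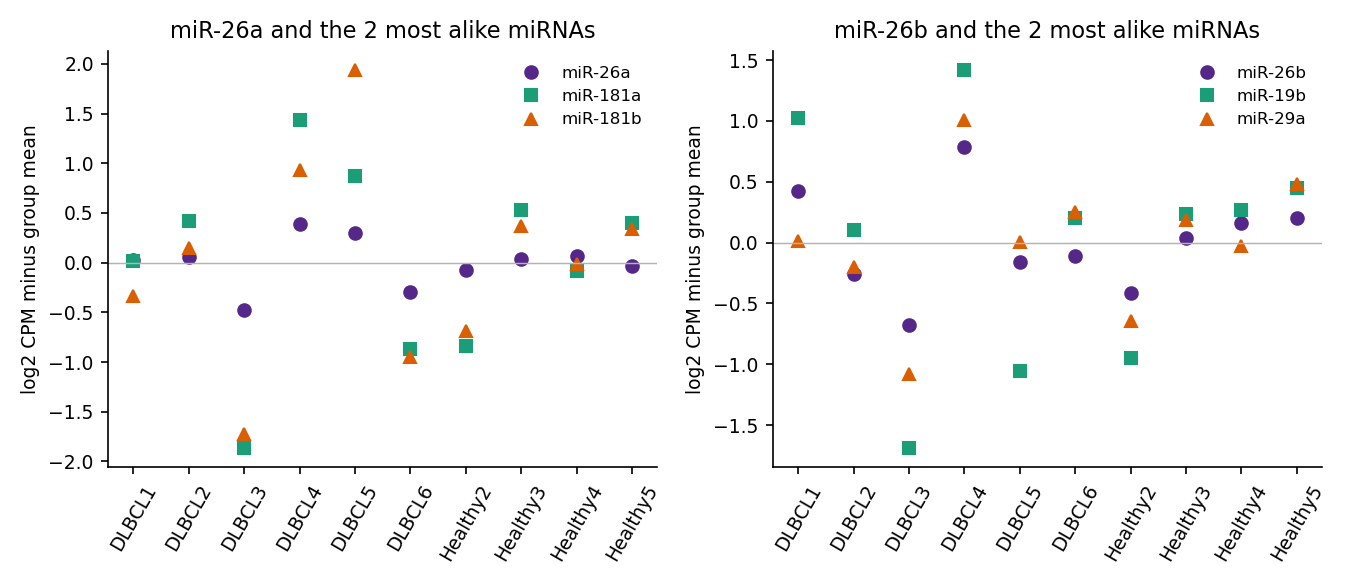
Deviation of log2 CPM from the group mean in each library for miR-26a with miR-181a and miR-181b (left) and for miR-26b with miR-19b and miR-29a (right). All 6 miRNAs have their lowest DLBCL value in DLBCL3, and miR-26a spans a narrower range than miR-181a and miR-181b.

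Of the lists of markers of cell types, that of red blood cells had members that rose. That of lymphocytes had 1 of 5 that fell (miR-150), beside 2.02% of all miRNAs tested that were DEMs lower in DLBCL. Those of the exocrine pancreas, stroma and vessels, and skeletal muscle had 0 that passed both thresholds in edgeR, against 5.67% of all miRNAs tested. The lymphocyte miRNAs (miR-150, miR-142, miR-342, miR-155 and miR-181a) were present in each library, with summed levels of 9138 to 22448 CPM in DLBCL and 14280 to 30137 CPM in healthy nodes. Their log2 fold change was below 0 for 3 and above 0 for 2, miR-155 (0.44) and miR-142 (0.22). In DLBCL these averaged 7564 and 5395 CPM, against 1009 CPM for miR-150. An unadjusted p under 0.05 in edgeR was reached by 2 of the 5, beside 26.7% of all miRNAs tested. The call of miR-150 is the same as in the list of miRNAs lowered by MYC. The 4 miRNAs of red blood cells (miR-451, miR-144, miR-486 and miR-486-3p) summed to 5740 to 48885 CPM in DLBCL and to 873 to 1278 CPM in healthy nodes, and 3 of the 4 rose in edgeR (miR-451, miR-486 and miR-486-3p), beside 3.64% of all miRNAs tested. The call of miR-451 held in all 10 fits without one library, whereas those of miR-486 and miR-486-3p held in 5 and were lost without DLBCL1 or any healthy library. With DESeq2's size factors, the 3 references or limma-voom 1 of the 4 was called, miR-451, beside 3, 2 and 4 of all 247 miRNAs called higher. DESeq2 called 2 of the 4, miR-451 and miR-144, beside 33 of 262 called higher. It gave no p for miR-486 or miR-486-3p. miR-486 and miR-486-3p had nearly equal levels in each library, so that their signal enters the sum 2 times, and likewise the count of those that rose. In DLBCL3, where both miR-26 members were lowest among the DLBCL libraries, miR-486 was at its highest (17490 CPM), whereas miR-451 was at 14260 CPM, below its highest level of 33751 CPM in DLBCL1, and miR-144 was at its lowest DLBCL level (2.35 CPM). In DLBCL4, where both members were highest, miR-451 was at its lowest DLBCL level (4563 CPM). There miR-486 stood at 596 CPM, above its 340 CPM in DLBCL6, and miR-144 at 12.3 CPM, above its level in DLBCL3. The 3 miRNAs of the exocrine pancreas (miR-216a, miR-216b and miR-217) summed to 17.5 to 662 CPM in DLBCL, the lowest in DLBCL3 and the highest in DLBCL4, and to 914 to 1950 CPM in healthy nodes. In edgeR 0 of the 3 passed both thresholds, and all 3 had an unadjusted p under 0.05, beside 26.7% of all miRNAs tested. DESeq2 and limma-voom each called 2 of them lower, beside 12 of 262 and 6 of 247 miRNAs called lower in all. The 6 miRNAs of stroma and vessels summed to 28822 to 89115 CPM in DLBCL, the lowest in DLBCL4 and the highest in DLBCL5, and to 39441 to 79007 CPM in healthy nodes. The 4 of skeletal muscle summed to 9.42 to 360 CPM in DLBCL, the lowest in DLBCL4 and the highest in DLBCL3, and to 16.3 to 76.5 CPM in healthy nodes. An unadjusted p under 0.05 in edgeR was reached by 0 of the stromal and 1 of the muscle miRNAs, beside the same 26.7%. DESeq2 and limma-voom called 0 in either list. No listed marker was at 0 in all 10 libraries. The part of these cells in the values of miR-26a and miR-26b was not tested, and in such bulk tissue fewer cells of a type cannot be told apart from less of the miRNA per cell. Without DLBCL3 the log2 fold change of miR-26a was -0.44 and that of miR-26b was 0.08, while without DLBCL4 they were -0.59 and -0.22.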

How the data were processed

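Per the labels and the paper, reads were cleaned, mapped with Bowtie 0.12.9 (CanFam3.1 in the submitters' processing notes), stripped of repeats and other small RNAs, and assigned to known miRNAs of miRBase with miRDeep2. The authors deposited raw read counts of 320 miRNAs in each of 10 libraries, which were used here, beside TPM values, which the authors obtained as the count divided by the library's miRNA total and which differed from the counts so scaled by at most 4.55e-05. Total counts ran from 10686441 to 34709421. Counts were compared with edgeR 4.0.16 in R 4.3.3 (TMM, default low-count filter, quasi-likelihood test, Benjamini-Hochberg adjustment). CPM on the log2 scale used a prior count of 2. The paper's tool, DESeq2, here in version 1.42.0, and limma 3.58.1 were alternatives. Exact permutation tests used Python 3.11.15 with numpy 2.4.6. The edgeR step was tested on simulated counts. Libraries were grouped by their titles. Between libraries of one group chi-squared was at least 2115 per degree of freedom, so within a group no library was a copy of another. Pairs across the groups were not compared.

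The members, the lists of miRNAs and the rule for the names were chosen with earlier results of these data known. Named were both members, their 2 neighbours in mean TPM on each side, the 5 miRNAs most alike to each, list members that passed or were extreme, miR-148a and the study's reference miRNAs. The lists came from general knowledge. Gene positions of the assembly UU_Cfam_GSD_1.0 served only to see which genes enclose the miR-26 genes. Mature sequences were not used here.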

Additional observations from a re-analysis of the deposited data

How the results depend on the processing

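The log2 fold change of miR-26a was below 0 in 22 of 24 settings and did not pass the adjusted threshold in any of them (adjusted p 0.113 to 0.867). The exceptions in sign were total miRNA reads (0.19) and limma-trend on log2(TPM + 1) (0.12). Leaving out one library gave -0.63 to -0.44. For miR-26b the sign turned with total miRNA reads (0.70), limma-trend on log2(TPM + 1) (0.57), mapped sRNA reads (0.041), the Q30 group as a term (0.26) and within the lower Q30 group (0.25). Leaving out one library gave -0.22 to 0.082, with the sign turned without DLBCL2 (0.02), DLBCL3 (0.082) and DLBCL6 (0.004), and the adjusted p was 0.275 to 0.991 over all settings. Apart from the scaling itself, where the shift of the median miRNA is given above, the cause was not tested.

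The count of DEMs, 14 in the edgeR fit (9 higher, 5 lower), was 8 with DESeq2's size factors (3 higher, 5 lower), 23 with total miRNA reads (22 higher, 1 lower), 7 with mapped sRNA reads, 45 with DESeq2, 7 with the Q30 group as a term, 46 within the lower Q30 group and 1 with the replicate number as a block. It was 12 with the 3 reference miRNAs (2 higher, 10 lower). Leaving out one library gave 1 without Healthy4, 2 without Healthy2, 3 without DLBCL1, 5 without Healthy3, 6 without Healthy5, 22 without DLBCL3 and 23 without DLBCL4.

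The difference in the log2 ratio of miR-26a to miR-26b was below 0 in all 15 settings, from -0.74 to -0.31. Leaving out one library gave -0.55 (without DLBCL5, p = 0.0476 by exact permutation) to -0.34. The deviations of libraries with the same number had r from -0.33 to 0.26 over 4 numbers, 1 of which matched its own number best. With so few numbers this cannot show whether the numbers pair libraries. DLBCL1 and DLBCL6 share no number with a healthy library. With the replicate number as a block the log2 fold change was -0.51 for miR-26a and -0.21 for miR-26b, and the difference in log2 ratio over the 4 shared numbers was -0.31 (exact p = 0.25). Each member had at least 64767 reads in every library.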
